A study of Mus musculus with 15 samples.

Results

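The transcriptome of mouse colon on day 100 of a colitis-associated cancer model with saline as the placebo was compared with that of colon labelled Control. Members were chosen by label: the 3 saline day 100 libraries and the 3 Control libraries, 6 of the 15 libraries of the series, with every gene of the deposited count table. The series studied colorectal cancer in this model and set APX3330 against saline. The labels describe male C57BL/6J mice of 6 to 10 weeks. Azoxymethane (AOM), a colon carcinogen that alkylates DNA, was injected into the peritoneum on day 0, at 10 mg/kg. Colitis was induced with dextran sulfate sodium (DSS), a polymer toxic to the colonic lining, at 2.5% in the drinking water on days 7 to 11, 28 to 32 and 49 to 53, and the saline group received intraperitoneal saline on those same days. The Control libraries are labelled only as C57BL/6 wild type. The protocol text attached to every sample, Control included, says that all mice received AOM and DSS, so the treatment of Control is not settled by the labels. The sample titles name the day 100 group as cycle 2, and the day itself comes from the sample descriptions. Whole colon was the labelled tissue, with no statement of region, of tumour or normal mucosa, or of the time of day of collection. Whether the libraries of a group stem from different animals is not in the labels, and the p-values then rest on a spread between libraries that may be technical.

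In this model repeated injury and repair of a mutagenised epithelium lead to tumours of the distal colon. The healthy colon is lined by absorptive colonocytes, which take up salt and water, and by goblet cells, which secrete the mucus that keeps bacteria away from the tissue. Tuft cells, which sense parasites and other luminal signals, and immune cells of the lamina propria complete the mucosa, and smooth muscle with its nerves and glia lies beneath it. The heat shock response and the unfolded protein response are programmes of chaperone genes that cells use when proteins are misfolded in the cytosol or in the endoplasmic reticulum.

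All 6 libraries expressed Cdx1, a transcription factor of intestinal epithelium. It held 341, 342 and 328 CPM (counts scaled by normalised library size) in Control and 313, 304 and 308 CPM at day 100 and did not pass the test (adjusted p = 0.443). Of 10 tested genes of colon epithelium, Cdx1 among them, 3 rose (Cdx2, Muc2 and Krt18) and 1 fell (Car1). Their summed share of counts was also apart between the groups, 1.28% to 1.32% in Control and 2.15% to 3.04% at day 100. Most of that sum at day 100 was Muc2, whose rise is described below, so the share does not measure epithelial content. Total counts ran from 13548661 to 15830242 per library. Differences between libraries in 3 kinds of marker of other or deeper tissue are given next and shown in the plot of summed marker shares. Transcripts of stratified squamous epithelium made up 0.145% and 0.0676% of counts in Control libraries 1 and 3 and 0.0991% in day 100 library 1, against at most 0.00116% in the others. Skeletal muscle transcripts made up 0.221% and 0.0993% in Control 1 and 3, with no more than 0.00450% elsewhere. Smooth muscle transcripts made up between 1.42% and 1.5% of counts in Control and between 0.679% and 0.924% at day 100. Because of the squamous libraries each gene was also tested with their presence as a term. It cannot remove skeletal muscle transcripts, which are high in Control 1 and 3 but not in day 100 library 1. With it, 7 of 13 tested skeletal muscle genes were still called lower. Genes of squamous epithelium, sebaceous glands and skeletal muscle are not described as results. In bulk tissue, fewer cells of a type and less RNA per cell cannot be told apart.

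**Figure D1:**
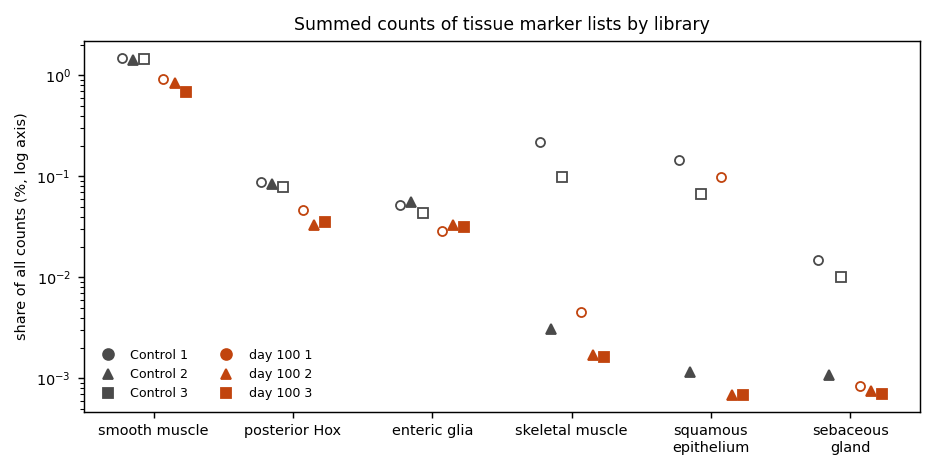
Share of all counts, in percent on a log axis, taken by the summed markers of smooth muscle, enteric glia, skeletal muscle, squamous epithelium and sebaceous glands and by posterior Hox genes in each of the 6 libraries. The squamous sum reaches 0.145% in Control library 1 and 0.0991% in day 100 library 1, and the smooth muscle sum is higher in every Control library (1.42% to 1.5%) than in any day 100 library (0.679% to 0.924%).

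Of 18038 genes tested with edgeR's quasi-likelihood test, 2057 (11.4%) were higher and 1886 (10.5%) lower at day 100 at a Benjamini-Hochberg adjusted p below 0.05, which makes 21.9% called in either direction. At least a 2-fold change was seen in 873 of the rises and 617 of the falls, and the median log2 fold change over all tested genes was 0.0045. With squamous transcripts as a term, 1577 (8.74%) were higher and 1501 (8.32%) lower, and 2988 genes were called in both fits. The ranges of the 2 groups did not overlap for 39.9% of all tested genes. The rule that chose the strongest rises and falls named below required no overlap, so their separation is no further result. An exact permutation test of 3 libraries against 3 cannot go below p = 0.1, so calls rest on the spread shared across genes and groups. A smooth muscle score, the mean log2 level of the smooth muscle markers, was higher in every Control library than in any day 100 library. With it as a term only 157 of the 18038 genes were higher and 77 lower, and the median SE of all 3943 called genes went from 0.169 to 0.306. List counts under that term are to be read beside 157 and 77 of 18038, and the main list counts beside 11.4% higher and 10.5% lower. Smooth muscle content and group therefore cannot be told apart for most genes, and the counts under that term stand beside each gene group. Fold changes below are on the log2 scale with their SE, and values in parentheses give the log2 fold change first.

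Goblet cell genes were higher at day 100. Of 18 tested genes of mucus and secretory fate, 13 rose against a background of 11.4%, and the others did not pass. Their median log2 fold change was 1.2, beside 0.0045 over all genes, and 10 passed with the smooth muscle score as a term. Muc2, the gel-forming mucin of the colon, held 2439.8, 2649 and 2297 CPM in Control and 12438, 21293 and 22614 CPM at day 100 (2.93, SE 0.20, adjusted p = 6.86e-07). Clca1, a protease that processes the mucus gel, held 2687, 2069 and 2087 and 22343, 28230.0 and 29008 CPM (3.54, SE 0.31, adjusted p = 5.06e-06). Fcgbp, a large mucus protein that binds to Muc2, held 3707, 3608 and 3622 and 20014, 21218 and 26630.0 CPM (2.63, SE 0.24, adjusted p = 6.69e-06). In all 3 genes the groups were far apart, and 39.9% of all tested genes show no overlap. For Muc2 day 100 library 1, which holds squamous transcripts, was the lowest of its group. Spdef, the transcription factor that drives goblet cell maturation, held 29.5, 23.9 and 27.3 and 115, 137 and 107 CPM (2.15, SE 0.18, adjusted p = 2.76e-06). Agr2, a disulfide isomerase needed to make Muc2, held 409, 449.7 and 459 and 1275, 1564 and 1409.9 CPM (1.69, SE 0.14, adjusted p = 3.94e-06). Abundant goblet genes that did not pass were Zg16 and Tff3: Zg16, a lectin of the mucus, had a log2 fold change of 0.25 (adjusted p = 0.349), and Tff3, a trefoil peptide, one of 0.18 (adjusted p = 0.553). Atoh1, which commits progenitors to the secretory lineage, held 62.7, 36 and 54.8 and 97.8, 87.8 and 104 CPM (0.92, SE 0.22, adjusted p = 0.00838). The membrane mucin Muc4 rose as well, from 52.7, 64.3 and 59 to 190.3, 293 and 295 CPM (2.14, SE 0.19, adjusted p = 5.06e-06).

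**Figure D2:**
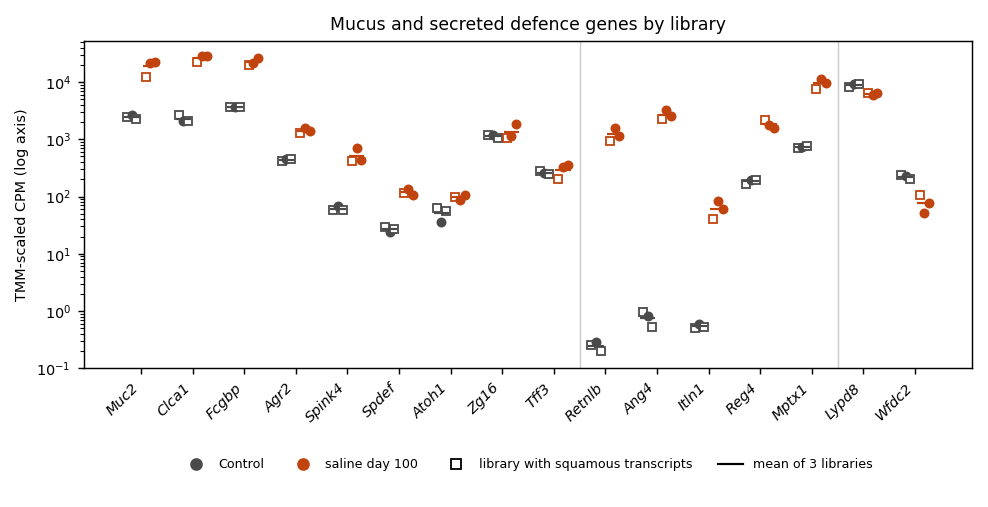
Level of goblet cell and secreted defence genes in each of the 6 libraries, in CPM on a log axis, with Control and saline day 100 marked separately and a bar at each group's mean. Muc2 sits between 2297 and 2649 CPM in Control and between 12438 and 22614 CPM at day 100, while Retnlb and Ang4 go from below 1 CPM to between 917 and 3306 CPM.

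Enzymes that build the O-linked sugar chains of mucins moved in both directions. Of 22 tested, 13 rose and 2 fell, with a median of 0.52, and 5 rose and 1 fell with the smooth muscle term. B4galnt2, which adds the terminal sugar of the Sda antigen, held 45.4, 54.5 and 40.6 CPM in Control and 128, 184 and 182 CPM at day 100 (1.82, SE 0.15, adjusted p = 2.76e-06). Galnt3 and Galnt5, which start O-glycan chains, had log2 fold changes of 1.02 and 1.26 (adjusted p = 4.41e-05 and 2.11e-05). Chst4, a sulfotransferase, held 32, 47.6 and 35.9 and 114, 107 and 113 CPM (1.53, SE 0.17, adjusted p = 2.14e-05). The 2 members that fell were Gcnt1, which forms core 2 branches (-1.53, SE 0.21, adjusted p = 1.46e-04), and B4galnt3, which adds N-acetylgalactosamine (-1.41, SE 0.13, adjusted p = 6.69e-06). B4galnt3 held 196, 192 and 183 CPM in Control and 83.5, 66.8 and 64.3 CPM at day 100. The core 3 enzyme B3gnt6 was called (3.15, SE 0.71, adjusted p = 0.00539), but its groups overlapped: it held 0.45, 1.68 and 0.666 CPM in Control and 0.848, 8.91 and 15 CPM at day 100, and the low day 100 value belongs to the library with squamous transcripts. The limma-voom test did not call it.

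Several secreted defence proteins went from near the detection limit to high levels. Of 17 tested antimicrobial proteins and lectins 9 rose and 2 fell, and 4 rose and 1 fell with the smooth muscle term. Their median was 1.05 over all 6 libraries and 0.33 between the libraries without squamous transcripts, where 3 rose and 2 fell. Retnlb (chr16:48816856-48818892), a goblet cell protein toxic to Gram-positive bacteria and part of the response to worms, held 0.257, 0.292 and 0.2 CPM in Control and 917, 1598 and 1141 CPM at day 100 (12.21, SE 1.39, adjusted p = 3.29e-05). Ang4 (chr14:51763878-51773590), a secreted ribonuclease of the intestinal epithelium, held 0.965, 0.803 and 0.533 and 2227, 3306 and 2515 CPM (11.76, SE 1.06, adjusted p = 5.58e-06). Reads of Ang4 may be shared with near-identical Ang genes, so its value is uncertain. All 3 day 100 libraries were high for both genes. Itln1, an intelectin that binds microbial sugars, held 0.515, 0.584 and 0.533 and 41.2, 82.1 and 60.4 CPM (6.80, SE 0.89, adjusted p = 1.01e-04). Reg4, a lectin of deep crypt secretory cells, held 169, 198 and 197 and 2212, 1764 and 1598 CPM (3.31, SE 0.49, adjusted p = 2.66e-04). Mptx1, a mucosal pentraxin, held 692, 722 and 767 and 7644, 11439 and 9583 CPM (3.72, SE 0.50, adjusted p = 1.27e-04). The falls were Lypd8, which binds flagella and keeps bacteria from the epithelium, and Wfdc2, a protease inhibitor of the whey acidic protein family. Lypd8 held 8247, 9387 and 9172 and 6306, 5973 and 6493 CPM (-0.51, SE 0.09, adjusted p = 0.00107), and Wfdc2 held 234, 225 and 201 and 107, 50.6 and 75.9 CPM (-1.50, SE 0.22, adjusted p = 2.86e-04). Duox2, which makes hydrogen peroxide at the epithelial surface, passed the test (1.05, SE 0.26, adjusted p = 0.00871) with overlapping groups, 113, 214 and 115 CPM in Control and 377, 194 and 343 CPM at day 100.

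Among the other strongest rises were genes of several unrelated functions. Pla2g4c, a cytosolic phospholipase A2 that releases fatty acids from membranes, held 0.45, 0.657 and 0.466 CPM in Control and 376, 1009 and 404 CPM at day 100 (10.14, SE 1.68, adjusted p = 6.11e-04). Pla2g2a, a secreted bactericidal phospholipase that the labelled C57BL/6 strain is known to carry in a disrupted form, held 1.42, 3.72 and 1.86 and 34.4, 21.4 and 27.2 CPM (3.58, SE 0.45, adjusted p = 7.82e-05). All day 100 libraries were high for both genes, and the groups did not overlap. The rule that chose Pla2g4c required this, and it held for 39.9% of all tested genes. Grpr, the receptor for gastrin-releasing peptide, held 0.0643, 0.073 and 0.266 and 7.56, 10.4 and 11.4 CPM (6.10, SE 0.46, adjusted p = 1.70e-06). Pnliprp2, a lipase, held 2.44, 1.75 and 1.6 and 124, 150.1 and 92.5 CPM (5.97, SE 1.29, adjusted p = 0.00397), a call that limma-voom did not give. It is also known as a gene of exocrine pancreas, and of 11 tested pancreas markers edgeR called 0, with 1 at an unadjusted p below 0.05 and 1 called by DESeq2. The summed pancreas markers ran from 5.79 to 7.81 CPM in Control and from 26.1 to 59.4 CPM at day 100, nearly all of it Clps, a colipase (5.4, 6.43 and 6.32 and 25.5, 59.2 and 38.7 CPM, log2 fold change 2.77, adjusted p = 0.0588), while the defining markers Pnlip, Cela2a and Cpa1 were at 0 counts in all 6 libraries. Their part in the rise of Pnliprp2 was not tested. The neuronal pentraxin Nptx1 held 1.35, 0.876 and 1.93 and 41.5, 26.4 and 22.3 CPM (4.42, SE 0.70, adjusted p = 4.13e-04). Of 16 genes of prostaglandin and phospholipase A2 biology 3 rose and 4 fell (median 0.02), beside 11.4% and 10.5% of all genes, and 1 rose with the smooth muscle term. Without Control library 2 or day 100 library 3 there were 2 falls. Those of the full comparison included Slco2a1, the prostaglandin uptake carrier, which held 206, 209.6 and 237 and 105, 62 and 70.7 CPM (-1.46, SE 0.22, adjusted p = 2.89e-04), and the prostaglandin E2 receptor Ptger3 (-1.05, SE 0.26, adjusted p = 0.00866). The receptor Ptger4 rose (0.47, SE 0.10, adjusted p = 0.00380).

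Genes of absorptive colonocytes were called in both directions, with 2 subunits of the epithelial sodium channel among the falls. Of 27 tested genes of absorptive colonocytes 12 fell, against a background of 10.5%, and 6 rose, with a median of -0.45. With the smooth muscle term 4 fell and 1 rose. Fxyd4 (chr6:117933559-117937692), a sodium pump subunit induced by aldosterone, held 68.4, 56.2 and 69.9 CPM in Control and 2.9, 2.76 and 2.03 CPM at day 100 (-4.65, SE 0.44, adjusted p = 7.43e-06). Scnn1b (chr7:121865038-121918514), the beta subunit of the epithelial sodium channel, held 35.3, 24.1 and 28.4 and 3.67, 2.95 and 3.69 CPM (-3.09, SE 0.26, adjusted p = 3.00e-06). The gamma subunit Scnn1g (chr7:121734479-121768475) held 41.2, 37.9 and 48.7 and 6.08, 3.01 and 4.89 CPM (-3.20, SE 0.53, adjusted p = 6.16e-04). Each of these genes was lower in all 3 day 100 libraries than in any Control library, with ranges that lie several-fold apart. The rule that chose these 3 genes required no overlap, and 39.9% of all tested genes show none. The alpha subunit Scnn1a did not pass (log2 fold change -0.36, adjusted p = 0.135). Sgk1, a kinase that keeps the channel at the membrane, held 610.0, 668 and 377 and 127, 124 and 133 CPM (-2.11, SE 0.32, adjusted p = 3.03e-04). Hsd11b2, which shields the aldosterone receptor from glucocorticoids, held 351, 357 and 325 and 173, 148 and 206 CPM (-0.97, SE 0.15, adjusted p = 2.92e-04). Nr3c2, the aldosterone receptor itself, held 176, 205 and 185 and 135, 119 and 132 CPM (-0.55, SE 0.13, adjusted p = 0.00656).

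Other transport genes of colonocytes were called in both directions. Slc26a3, the chloride and bicarbonate exchanger, held 1138, 1593 and 1257 CPM in Control and 550.2, 479 and 561 CPM at day 100 (-1.33, SE 0.28, adjusted p = 0.00366). Carbonic anhydrase genes Car1 and Car4 had log2 fold changes of -1.88 and -1.39 (adjusted p = 0.00231 and 0.00205). Slc37a2, a sugar phosphate carrier, held 484, 561 and 417 and 99.9, 83.2 and 109 CPM (-2.32, SE 0.30, adjusted p = 1.01e-04). In contrast, Aqp4, a water channel, held 102, 140.3 and 106 CPM in Control and 775, 686 and 829.9 CPM at day 100 (2.72, SE 0.18, adjusted p = 6.86e-07), and Slc9a3, the sodium and proton exchanger, held 78.7, 102 and 87.7 and 393, 318 and 518 CPM (2.20, SE 0.40, adjusted p = 0.00120). Guca2a, the guanylin peptide that regulates fluid secretion, rose from 112, 128 and 144 to 234, 369.9 and 368 CPM (1.34, SE 0.20, adjusted p = 3.02e-04). The water channel Aqp8 did not pass (log2 fold change -0.99, adjusted p = 0.0515). S100g (chrX:162961992-162964599), a calcium-binding protein of calcium absorption, was among the strongest falls, at 20.5, 29.4 and 28.3 and 1.27, 1.73 and 0.15 CPM (-4.59, SE 0.74, adjusted p = 4.68e-04). Abcg5, a subunit of a sterol exporter, held 38.4, 26.9 and 35.3 and 6.85, 3.85 and 2.41 CPM (-2.94, SE 0.39, adjusted p = 1.01e-04). Fabp2, a fatty acid-binding protein most abundant in small intestine, held 7.27, 9.86 and 7.19 and 45.5, 96.9 and 74.5 CPM (3.16, SE 0.28, adjusted p = 4.85e-06).

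**Figure D3:**
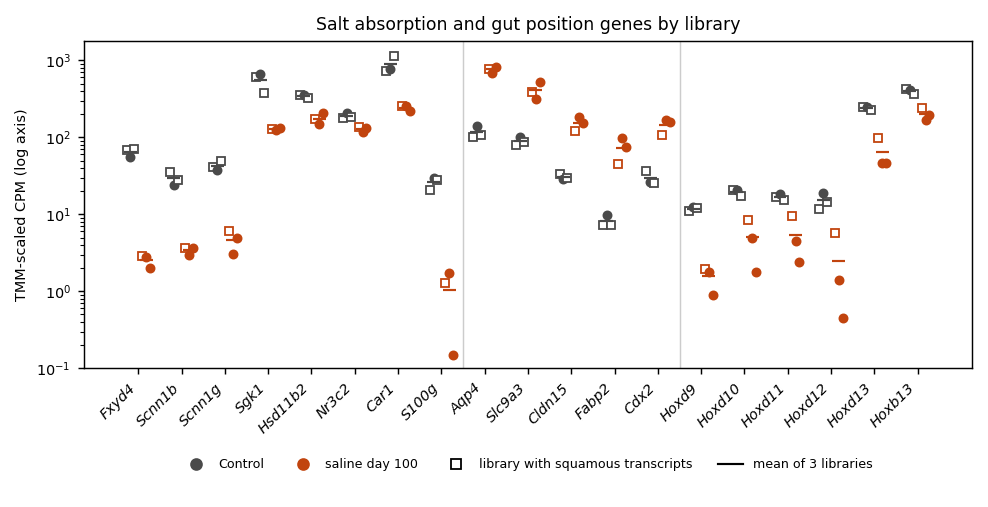
Level of ion transport, tight junction and regional identity genes in each of the 6 libraries, in CPM on a log axis, with a bar at each group's mean. Fxyd4 lies between 56.2 and 69.9 CPM in Control and between 2.03 and 2.90 CPM at day 100, whereas Aqp4 lies between 102 and 140 CPM in Control and between 686 and 830 CPM at day 100.

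Among 16 tested tight junction genes 7 fell, 1 rose and the others did not pass (median -0.44), and with the smooth muscle term none fell and 1 rose. Ocln, which encodes occludin, held 162, 172 and 177 CPM in Control and 102, 97.3 and 87.5 CPM at day 100 (-0.83, SE 0.12, adjusted p = 1.52e-04). Cldn8, a sealing claudin of the distal colon, held 146, 196 and 146 and 96.1, 68.1 and 98.1 CPM (-0.90, SE 0.17, adjusted p = 0.00197), and Cldn4 held 55.1, 47.8 and 66 and 34.6, 10.8 and 9.78 CPM (-1.61, SE 0.43, adjusted p = 0.0150). Cldn4 was lowest in the 2 day 100 libraries without squamous transcripts, and its call was lost without Control library 3 or day 100 library 2 or 3. The member that rose was Cldn15, a claudin that forms sodium-permeable pores, at 32.9, 29.1 and 29.6 and 121, 186 and 155 CPM (2.33, SE 0.16, adjusted p = 7.41e-07). Gjb5, a gap junction connexin, fell from 24.6, 19 and 20.9 to 4.17, 4.29 and 1.05 CPM (-2.75, SE 0.39, adjusted p = 1.79e-04).

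Transcription factors of position along the gut differed between the groups. Hox genes are expressed in nested domains, with the posterior members in the hindgut and the end of the Hoxd cluster in the most distal part. Of 8 posterior Hox genes on the list 5 fell and the others did not pass (median -1.30). The median was -0.73 between the libraries with squamous transcripts and -1.70 between those without. Hoxd13 (chr2:74668310-74671599) held 249.5, 250.2 and 226 CPM in Control and 97.7, 46.5 and 46.8 CPM at day 100 (-1.93, SE 0.27, adjusted p = 1.59e-04). Its neighbours Hoxd12, Hoxd11 and Hoxd10 had log2 fold changes of -2.60, -1.62 and -1.95 (adjusted p = 0.00428, 0.00958 and 0.00479). Hoxd9 (chr2:74697727-74700208), which was not on that list and was among the strongest falls, held 10.9, 12.3 and 11.9 and 1.98, 1.79 and 0.903 CPM (-2.90, SE 0.37, adjusted p = 8.98e-05). Control library 2, which lacks squamous and skeletal muscle transcripts, was as high as the other Control libraries for Hoxd13, and day 100 library 1 was the highest of its group for each Hoxd gene named. Hoxb13 held 425, 408 and 364 and 238, 169 and 196 CPM (-0.99, SE 0.13, adjusted p = 1.35e-04), while Hoxa13 did not pass (log2 fold change -0.33, adjusted p = 0.0775). No gene of the list passed with the smooth muscle term, while Hoxd9 did. Among 11 anterior Hox genes edgeR called 0, with 0 at an unadjusted p below 0.05 and 0 called by DESeq2 (median 0.15). Cdx2, a homeobox factor that specifies intestine, rose from 37, 26.2 and 25.4 to 107, 168 and 156 CPM (2.28, SE 0.26, adjusted p = 3.06e-05). The labels give no sampled region, and the part of region in these differences was not tested. Of 5 tested markers of small intestine 1 rose, Alpi, a brush border phosphatase, at 0.129, 0.803 and 0.333 and 1.48, 3.08 and 4.06 CPM (2.77, SE 0.63, adjusted p = 0.00530), which did not pass with the smooth muscle term, and Apoa1, Apoa4, Sis, Lct and Defa17 had too few counts to be tested.

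Stem cell and Wnt pathway genes were called about as often as all genes. Of 25 tested 1 rose and 4 fell, beside 11.4% and 10.5% of all genes, with a median of 0.18, and none passed with the smooth muscle term. Without day 100 library 2 there were 2 falls, and Rnf43 was not called. Lgr5, the receptor that marks crypt stem cells, held 16.9, 18.6 and 14.5 CPM in Control and 4.52, 4.29 and 6.7 CPM at day 100 (-1.69, SE 0.32, adjusted p = 0.00175). Smoc2 and Rnf43, also expressed in stem cells, were called as well (-0.75, SE 0.11, adjusted p = 2.90e-04 for Smoc2, and -0.60, SE 0.15, adjusted p = 0.0105 for Rnf43). Other Wnt target genes did not pass: Axin2 had a log2 fold change of 0.31 (adjusted p = 0.299) and Ascl2 one of -0.33 (adjusted p = 0.554). Cd44, a hyaluronan receptor, rose from 38.7, 50.5 and 42.5 to 78.1, 78 and 74.1 CPM (0.81, SE 0.12, adjusted p = 3.14e-04). Wnt8b, a Wnt ligand, was among the strongest falls, at 7.08, 5.99 and 8.25 and 0.495, 0.256 and 0.301 CPM (-4.31, SE 0.49, adjusted p = 3.28e-05). Of 27 genes of proliferation and its control 4 rose and 1 fell (median 0.34), beside 11.4% and 10.5% of all genes, and 25 had a log2 fold change above 0. The fall was Cdkn2b, an inhibitor of the cell cycle (log2 fold change -0.78, adjusted p = 0.00645). With the smooth muscle term none rose and 1 fell. Mki67 held 106, 183 and 184 and 256, 274 and 245 CPM (0.71, SE 0.20, adjusted p = 0.0204). Mki67 lost its call without Control library 1 or day 100 library 2. Without Control library 1, the lowest for Mki67, no proliferation gene was called higher, and without day 100 library 1, 2 or 3 there were 2, 1 and 2 rises. Among 11 genes of the epidermal growth factor family none passed with the smooth muscle term. The receptors Erbb2 and Erbb3 fell (log2 fold changes -0.80 and -0.63, adjusted p = 4.13e-04 and 0.00674), and the ligands Areg and Ereg did not pass (-0.27 and 0.46, adjusted p = 0.604 and 0.306).

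Genes of epithelial repair and of tuft cells were also followed. Of 19 genes that mark regenerating colonic epithelium 4 rose and 2 fell (median -0.04), beside 11.4% and 10.5% of all genes, and 2 rose with the smooth muscle term. Plet1, a surface protein of repairing colonocytes, held 2.32, 0.511 and 1.4 CPM in Control and 24.9, 18.9 and 30.6 CPM at day 100 (4.11, SE 0.42, adjusted p = 1.32e-05). Ly6a, an interferon-responsive surface antigen, held 169.5, 248 and 175 and 386, 340.2 and 435 CPM (0.97, SE 0.20, adjusted p = 0.00275). Clu and Anxa1 did not pass (log2 fold changes -0.08 and -0.04, adjusted p = 0.825 and 0.943). The number of falls on this list ran from 0 to 7 when single libraries were left out, with 7 without day 100 library 1, and 0 without Control library 3 or day 100 library 2. Of 12 tuft cell genes 7 rose and the others did not pass (median 1.23), and 1 passed with the smooth muscle term. Trpm5, the cation channel of tuft cell taste signalling, held 2.12, 4.82 and 4.33 and 14.2, 14.4 and 14.6 CPM (1.94, SE 0.29, adjusted p = 2.47e-04). Dclk1, a kinase that marks tuft cells, held 14.1, 17 and 12.5 and 30.7, 31.8 and 30.1 CPM (1.09, SE 0.17, adjusted p = 3.39e-04). The groups were apart for both genes, beside 39.9% of all tested genes without overlap, and Trpm5 varied little among the day 100 libraries.

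**Figure D4:**
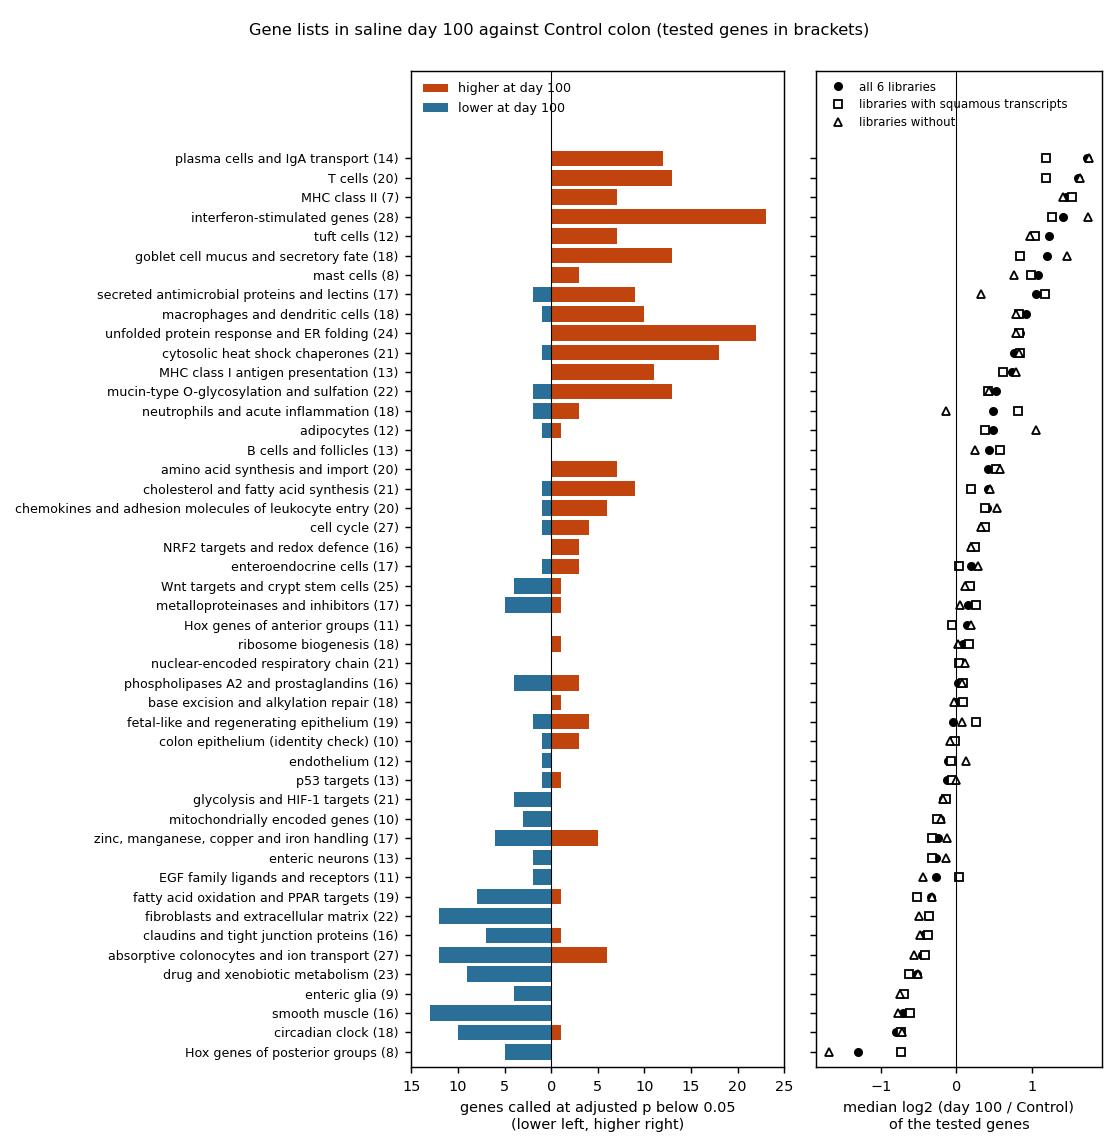
For each gene list, the left panel gives the number of genes called lower and higher at day 100 and the right panel the median log2 ratio of its tested genes, over all 6 libraries and separately over libraries with and without squamous transcripts. The medians over 6 libraries of interferon-stimulated genes (1.42) and goblet cells (1.2) lie right of 0, and those of clock genes (-0.81) and smooth muscle (-0.71) left of it.

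Chaperones of the endoplasmic reticulum rose almost without exception. Of 24 genes of the unfolded protein response 22 rose and the others did not pass (median 0.85), and 22 rose with squamous transcripts as a term, but 4 with the smooth muscle term. Hspa5, the main chaperone of this compartment and also called BiP, held 412, 513 and 401 CPM in Control and 1324, 980.3 and 1177 CPM at day 100 (1.39, SE 0.22, adjusted p = 4.66e-04). Hsp90b1, its HSP90 chaperone, held 184, 231 and 204 and 495, 486 and 514 CPM (1.27, SE 0.12, adjusted p = 6.97e-06). Derl3, a protein of the pathway that exports misfolded proteins for degradation, held 3.41, 5.7 and 3.4 and 17.9, 18.8 and 20.6 CPM (2.20, SE 0.24, adjusted p = 2.11e-05). None of these groups overlapped, as was so for 39.9% of all tested genes. The sensors rose too, with smaller log2 fold changes: Ern1 had a log2 fold change of 0.60 and Atf6 one of 0.38 (adjusted p = 8.56e-04 and 0.00421). The goblet cell sensor Ern2 held 112, 102 and 106 and 165, 189.6 and 194 CPM (0.78, SE 0.12, adjusted p = 2.82e-04). Of 20 genes of amino acid supply that the transcription factor Atf4 can induce, 7 rose (median 0.42). Pycr1, an enzyme of proline synthesis, held 4.44, 3.94 and 3.79 and 12.7, 18.5 and 20.3 CPM (2.08, SE 0.26, adjusted p = 6.41e-05), and Asns, asparagine synthetase, 17, 21 and 22.6 and 46, 54.5 and 51.9 CPM (1.33, SE 0.19, adjusted p = 1.74e-04). None of the 20 passed with the smooth muscle term.

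The promoters of these genes were searched for the endoplasmic reticulum stress element, written here as CCAAT, a gap of 9 bases of any kind and CCACG, on both strands. It was found in the promoters of 7 of the 21 members matched in the RefSeq table (33.3%). Among all 27025 genes with promoters of the same length, 37 held it (0.137%). A gene was counted once if any of its promoters held the motif, here and in the searches below. All 7 were called higher, as were 22 of all 24 genes of the list, and whether the element goes with the call was not tested. Such a match describes letters, not a site in use. The promoters of Hsp90b1 (chr10:86705395-86705694, minus strand) and Derl3 (chr10:75893148-75893447, plus strand) are shown because they are the matching members with the smallest p. They come from RefSeq on GRCm38.p6, and capitals mark the element, which starts at positions -212 and -107 in Hsp90b1 and -156 in Derl3 relative to the start site.
Hsp90b1: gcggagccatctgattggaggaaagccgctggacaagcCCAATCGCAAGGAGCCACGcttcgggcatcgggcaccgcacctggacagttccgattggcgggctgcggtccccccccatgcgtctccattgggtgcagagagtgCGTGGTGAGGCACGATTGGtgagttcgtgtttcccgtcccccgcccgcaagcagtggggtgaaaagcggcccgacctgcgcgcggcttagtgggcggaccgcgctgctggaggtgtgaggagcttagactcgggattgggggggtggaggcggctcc
Derl3: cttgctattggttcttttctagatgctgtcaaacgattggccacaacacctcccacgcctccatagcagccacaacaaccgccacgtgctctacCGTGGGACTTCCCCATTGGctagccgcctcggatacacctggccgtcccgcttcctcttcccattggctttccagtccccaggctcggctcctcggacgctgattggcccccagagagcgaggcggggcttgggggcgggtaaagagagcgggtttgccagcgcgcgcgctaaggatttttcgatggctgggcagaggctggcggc

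Cytosolic heat shock genes rose too. Of 21 tested 18 rose and 1 fell (median 0.77), and 17 rose with squamous transcripts as a term, but 2 with the smooth muscle term. Hspa1a, an inducible HSP70, held 16.7, 6.65 and 8.92 CPM in Control and 73.1, 78.6 and 95.3 CPM at day 100 (2.93, SE 0.44, adjusted p = 2.80e-04), and its near-identical copy Hspa1b, with which reads may be shared, held 79.1, 39.4 and 45.6 and 379, 397 and 422 CPM (2.87, SE 0.43, adjusted p = 2.86e-04). Hsph1, an HSP110 that reloads HSP70, held 48.2, 52.5 and 32.4 and 284, 283 and 311 CPM (2.72, SE 0.34, adjusted p = 7.31e-05). Dnaja1, an HSP40 cochaperone, held 90.9, 95.5 and 93.1 and 276, 241 and 283 CPM (1.52, SE 0.19, adjusted p = 7.25e-05). In all 4 the groups were apart, beside 39.9% of all tested genes without overlap, and the day 100 libraries were close to one another. Hsf1, the transcription factor of this response, passed narrowly (0.31, SE 0.11, adjusted p = 0.0481) and lost its call when any 1 library was left out and with squamous transcripts as a term. The member that fell was Cryab, a small heat shock protein abundant in muscle, at 40.1, 28.3 and 25.7 and 16, 18.2 and 17.8 CPM (-0.86, SE 0.20, adjusted p = 0.00653).

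The heat shock rise was set against the earlier saline days, whose libraries were fitted together with these. Exocrine pancreas transcripts made up 4.24% and 1.13% of counts in day 48 libraries 2 and 3, against at most 0.00743% in every other library of the series. At day 100, 3.08% of all genes differed from day 27 and 13.6% from day 48 in either direction. Of the 21 heat shock genes 10 were higher at day 100 than on day 27 and 7 higher than on day 48. Dnaja1 was higher than on day 27 by 1.40 (adjusted p = 0.00385) and than on day 48 by 1.01 (adjusted p = 0.00359). For Hspa1a the log2 differences were 2.43 and 2.02 (adjusted p = 0.0115 and 0.00589), and for Chordc1, an HSP90 cochaperone, 1.31 and 0.84 (adjusted p = 0.00309 and 0.00526). Of the 24 unfolded protein response genes 3 were higher than on day 27 and 6 higher than on day 48. Hspa5 was not among them (0.36 and 0.10, adjusted p = 0.373 and 0.807). These contrasts and the one against Control share the day 100 libraries. Without the 2 day 48 libraries with pancreas transcripts, a refit that leaves 1 day 48 library, 2.52% of genes differed from day 48. In it 2 heat shock genes and 1 unfolded protein response gene were higher at day 100. The log2 differences from day 48 were then 1.01 for Dnaja1, 1.37 for Hspa1a and 0.95 for Chordc1, and none passed (adjusted p = 0.0652, 0.186 and 0.0579). Outside the chaperones, Aqp4 stood above both earlier days (0.93 and 1.42, adjusted p = 0.0137 and 2.37e-04), as did Fabp2 (1.30 and 2.72, adjusted p = 0.0171 and 7.92e-05), and Scnn1b lay below both (-1.11 and -2.02, adjusted p = 0.0302 and 2.59e-04). These 3 genes also passed against the single day 48 library without pancreas transcripts (1.2, 2.54 and -2.02, adjusted p = 0.00790, 0.00895 and 0.00895).

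**Figure D5:**
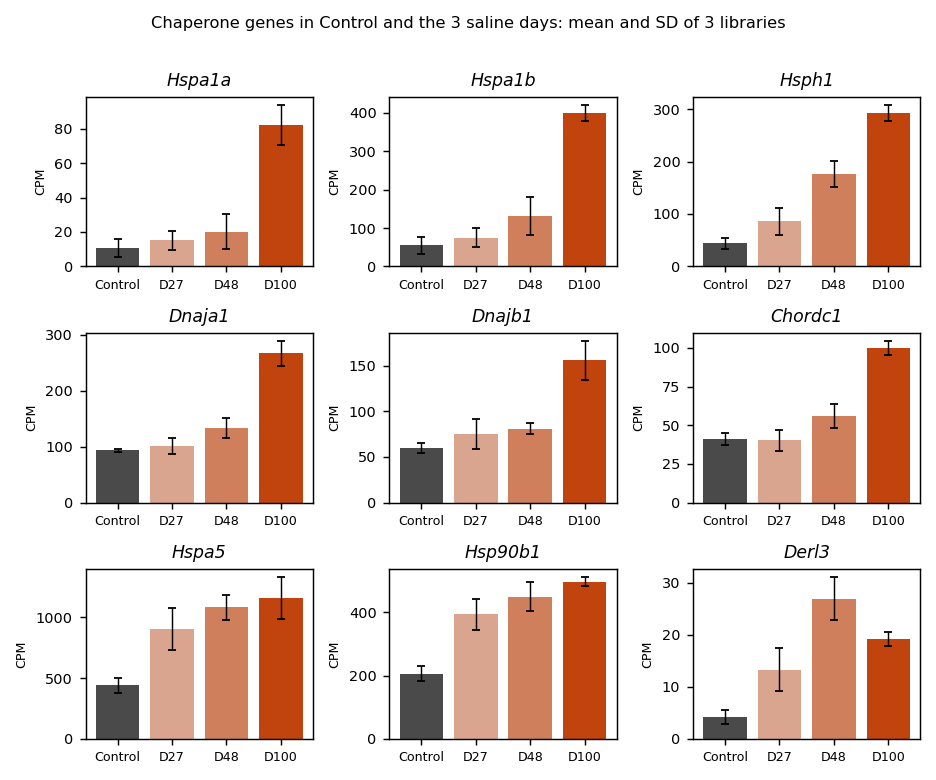
Mean level in CPM of 9 heat shock and endoplasmic reticulum chaperone genes in Control and in the saline groups of days 27 (D27), 48 (D48) and 100 (D100), with error bars of 1 SD over 3 libraries and axes from 0. The D48 bars include 2 libraries with pancreas transcripts. The D100 bar of Hspa1a stands above the other 3, and that of Hspa5 lies close to the D48 bar.

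The heat shock element was searched as GAA, 2 bases of any kind and TTC. It was found on either strand in promoters of 10 of 16 matched heat shock genes (62.5%) and of 2442 of all 27025 genes (9.04%). Of the 10, 9 were called higher, beside 18 of all 21 genes of the list, and whether the element goes with the call was not tested. The promoters of Dnaja1 (chr4:40722218-40722517, plus strand) and Hsph1 (chr5:149636287-149636586, minus strand) are printed as the matching members with the smallest p. Capitals mark the element, which starts at -124 in Dnaja1 and at 41 after the start site in Hsph1.
Dnaja1: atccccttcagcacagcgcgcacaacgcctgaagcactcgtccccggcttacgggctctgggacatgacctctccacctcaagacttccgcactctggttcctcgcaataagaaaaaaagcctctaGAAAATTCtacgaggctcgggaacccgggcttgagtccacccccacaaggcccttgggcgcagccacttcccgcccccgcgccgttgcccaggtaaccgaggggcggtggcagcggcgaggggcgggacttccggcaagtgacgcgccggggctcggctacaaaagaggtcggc
Hsph1: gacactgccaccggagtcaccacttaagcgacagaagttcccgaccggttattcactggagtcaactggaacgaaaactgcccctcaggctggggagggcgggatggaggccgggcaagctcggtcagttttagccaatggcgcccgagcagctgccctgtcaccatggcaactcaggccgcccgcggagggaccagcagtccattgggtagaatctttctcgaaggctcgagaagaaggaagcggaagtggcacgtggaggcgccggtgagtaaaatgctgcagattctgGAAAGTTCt

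Interferon-stimulated genes were higher at day 100. Of 28 tested 23 rose and the others did not pass, with a median of 1.42. With squamous transcripts as a term 26 rose, and with the smooth muscle term 1 did. Mx1, an antiviral GTPase, held 11.2, 4.67 and 8.45 CPM in Control and 55.6, 43.7 and 52.8 CPM at day 100 (2.64, SE 0.24, adjusted p = 6.69e-06). Stat2, a transcription factor that interferon activates, held 72.3, 48.4 and 53.7 and 158, 136 and 187 CPM (1.46, SE 0.21, adjusted p = 2.26e-04), and its partner Irf9 held 57.5, 61.1 and 58.5 and 109, 105 and 123 CPM (0.93, SE 0.13, adjusted p = 1.30e-04). Eif2ak2, the kinase PKR that senses double-stranded RNA, held 51.2, 49.4 and 54.1 and 105, 82.9 and 116 CPM (0.97, SE 0.13, adjusted p = 9.77e-05). The groups of these 4 genes did not overlap, as was so for 39.9% of all tested genes. Mx1 and Stat2 varied between Control libraries, with library 2 the lowest. Zbp1, a sensor of left-handed nucleic acid, held 36.7, 29.9 and 38.7 and 114, 98.2 and 109 CPM (1.61, SE 0.24, adjusted p = 2.55e-04). Apol10a, an apolipoprotein L that was not on this list, was among the strongest rises of all genes, at 4.37, 1.97 and 2.86 and 100.2, 142 and 205 CPM (5.58, SE 0.38, adjusted p = 6.86e-07).

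The interferon-stimulated response element was searched as GAAA, a gap of 2 bases of any kind and GAAA. It was found on either strand in promoters of 14 of 21 matched members (66.7%) and of 1079 of all 27025 genes (3.99%). Of the 14, 9 were called higher, and Ddx58 is absent from the count table and was not tested. Those 9 stand beside 23 of all 28 tested genes of the list, and whether the element goes with the call was not tested. Capitals mark it in the promoters of Eif2ak2 (chr17:78882523-78882822, minus strand), where it starts at 18, and Stat2 (chr10:128270248-128270547, plus strand), where it starts at -222. They are shown as the matching members with the smallest p.
Eif2ak2: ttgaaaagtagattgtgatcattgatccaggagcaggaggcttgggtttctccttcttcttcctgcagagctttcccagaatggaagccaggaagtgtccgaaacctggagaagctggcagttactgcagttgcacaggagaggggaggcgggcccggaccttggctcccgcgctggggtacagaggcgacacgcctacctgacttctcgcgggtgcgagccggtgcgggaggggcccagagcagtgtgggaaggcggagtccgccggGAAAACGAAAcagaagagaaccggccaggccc
Stat2: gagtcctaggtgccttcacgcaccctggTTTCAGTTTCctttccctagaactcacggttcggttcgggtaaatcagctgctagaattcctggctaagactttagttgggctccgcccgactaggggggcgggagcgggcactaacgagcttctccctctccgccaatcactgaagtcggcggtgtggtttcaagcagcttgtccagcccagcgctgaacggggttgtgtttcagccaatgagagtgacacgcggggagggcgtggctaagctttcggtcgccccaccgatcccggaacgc

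Antigen presentation genes rose with them. Of 13 genes of major histocompatibility complex (MHC) class I presentation 11 rose (median 0.74), and all 7 tested genes of class II rose (median 1.45), with 7 of 7 also called with squamous transcripts as a term. No gene of either list passed with the smooth muscle term. Nlrc5, the transactivator of class I genes, held 15.7, 9.71 and 13.4 CPM in Control and 60.5, 52.9 and 63.5 CPM at day 100 (2.18, SE 0.30, adjusted p = 1.35e-04). B2m, the shared class I light chain, held 329, 333 and 348 and 743, 949 and 985 CPM (1.41, SE 0.24, adjusted p = 8.18e-04). Cd74, the class II invariant chain, held 204, 202 and 266 and 771, 764 and 821 CPM (1.81, SE 0.25, adjusted p = 1.74e-04). Ciita, the class II transactivator, held 13, 18.3 and 13.1 and 38.8, 29.7 and 43 CPM (1.33, SE 0.33, adjusted p = 0.00888). All day 100 libraries lay above all Control libraries for these genes, and 39.9% of all tested genes show no overlap. The day 100 values of Cd74 were close together. H2 genes are near copies of one another, so single values of the family are uncertain.

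Lymphocyte and plasma cell transcripts were higher, at low levels for most T cell genes. Of 20 T cell genes 13 rose (median 1.61), 10 with squamous transcripts as a term and none with the smooth muscle term. Without Control library 2 the count was 8. Cd4, the coreceptor of helper T cells, held 5.02, 4.67 and 7.46 CPM in Control and 20.6, 17.8 and 24.8 CPM at day 100 (1.88, SE 0.26, adjusted p = 1.36e-04). Icos, a costimulatory receptor, held 0.965, 0.73 and 0.266 and 3.04, 6.28 and 4.29 CPM (2.78, SE 0.52, adjusted p = 0.00149), and Trat1, an adaptor of the T cell receptor, 0.129, 0.365 and 0 and 4.52, 5.38 and 7.75 CPM (5.13, SE 0.63, adjusted p = 5.82e-05). Gzmb, granzyme B of cytotoxic cells, held 0.836, 0.511 and 1.26 and 3.46, 6.86 and 4.06 CPM (2.45, SE 0.42, adjusted p = 8.31e-04). Of 14 plasma cell genes 12 rose (median 1.74), 10 with squamous transcripts as a term and 2 with the smooth muscle term. Igha, the immunoglobulin A heavy chain, held 969, 1308 and 1258 and 4166, 6049 and 6119.7 CPM (2.21, SE 0.26, adjusted p = 4.21e-05). Jchain, which joins immunoglobulin A into dimers, held 319, 381 and 411 and 1147, 1578 and 1590.4 CPM (1.96, SE 0.24, adjusted p = 5.58e-05). Ighg2c, an immunoglobulin G heavy chain, held 5.92, 12 and 14.2 and 195, 390.4 and 119 CPM (4.46, SE 0.55, adjusted p = 6.15e-05) and varied widely among the day 100 libraries. Among 13 B cell genes edgeR called 0 (median 0.44), with 1 at an unadjusted p below 0.05 and 0 called by DESeq2. Ms4a1, which encodes CD20, held 9.2, 10.2 and 9.12 and 14.5, 11.1 and 12.9 CPM (log2 fold change 0.44, adjusted p = 0.625).

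Genes of macrophages and mast cells rose more often than they fell, and those of acute inflammation were called in both directions. Of 18 macrophage and dendritic cell genes 10 rose and 1 fell (median 0.93), and none passed with the smooth muscle term. Adgre1, the F4/80 antigen, held 8.17, 14.9 and 12.6 CPM in Control and 32.8, 31.7 and 45.1 CPM at day 100 (1.62, SE 0.24, adjusted p = 2.76e-04), and C1qb, a complement chain of resident macrophages, 28.9, 37.6 and 33.9 and 63.6, 67.6 and 87.4 CPM (1.12, SE 0.16, adjusted p = 1.50e-04). The member that fell was Cd163, a haemoglobin scavenger receptor, at 14.1, 23.6 and 24.9 and 6.92, 3.46 and 5.12 CPM (-2.01, SE 0.35, adjusted p = 9.35e-04). Of 18 genes of neutrophils and acute inflammation 3 rose and 2 fell (median 0.49, and -0.14 between the libraries without squamous transcripts), with 1 fall without day 100 library 2 or 3. The 3 rises and 2 falls stand beside 11.4% and 10.5% of all genes. With the smooth muscle term 1 rose. Il1b, interleukin 1 beta, held 0.901, 1.68 and 1.07 and 9.26, 7.95 and 6.62 CPM (2.71, SE 0.52, adjusted p = 0.00168). The other rises were Csf3r, a growth factor receptor of neutrophils (log2 fold change 2.05, adjusted p = 6.12e-04), and the serum amyloid gene Saa3 (1.89, adjusted p = 0.0301). The call of Csf3r held whichever library was left out, and that of Saa3 was lost without Control library 2 or 3 or day 100 library 2 or 3. Saa1, serum amyloid A of the colonic epithelium, fell from 678, 749 and 526 to 258, 219 and 331 CPM (-1.27, SE 0.26, adjusted p = 0.00246). Ly6g, a neutrophil surface antigen, held 96.9, 135 and 109 and 68.4, 43.5 and 43 CPM (-1.14, SE 0.29, adjusted p = 0.0119), and its call was lost without day 100 library 2 or 3. The chemokine Ccl8, which attracts monocytes and other leukocytes, held 2.89, 2.56 and 1.86 and 19.1, 46.2 and 20.5 CPM (3.55, SE 0.42, adjusted p = 4.67e-05). Of 8 mast cell genes 3 rose (median 1.08), none with the smooth muscle term: Kit, and the mucosal mast cell proteases Mcpt1 and Mcpt2, whose reads may be shared with near copies. Mcpt1 held 0, 0.73 and 0.399 and 7.63, 11.7 and 5.04 CPM (4.44, SE 0.81, adjusted p = 0.00125). Mcpt2 had 3 counts over the Control libraries and 153 over the day 100 libraries, a ratio of 52.5 with a 95% counting interval from 17.6 to 257. The interval covers counting error only.

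Stromal and muscle genes were lower. Of 22 fibroblast and matrix genes 12 fell and the others did not pass (median -0.38), and 1 fell with the smooth muscle term. Sparc, a collagen-binding matrix protein, held 401, 465 and 443 CPM in Control and 221, 224 and 204 CPM at day 100 (-1.01, SE 0.10, adjusted p = 1.17e-05). Col1a1, the main chain of fibrillar collagen, held 461, 554 and 488 and 286, 277 and 297 CPM (-0.80, SE 0.11, adjusted p = 1.10e-04), and Lum, a proteoglycan of collagen fibrils, 87.8, 102 and 89.9 and 53.2, 39.9 and 33.1 CPM (-1.14, SE 0.19, adjusted p = 6.29e-04). Of 16 smooth muscle genes 13 fell (median -0.71), among them Acta2, smooth muscle actin, at 2019.6, 1964 and 2041 and 1238, 1154 and 913 CPM (-0.87, SE 0.14, adjusted p = 5.61e-04). Carmn, a long noncoding RNA of smooth muscle that was not on that list, held 38.3, 30.3 and 39.1 and 8.41, 4.04 and 6.17 CPM (-2.53, SE 0.33, adjusted p = 1.01e-04). Of 9 enteric glia genes 4 fell (median -0.70). Enteric neuron genes gave 2 falls of 13, and endothelial genes 1 fall of 12, beside 10.5% of all genes. The smooth muscle term was made from the smooth muscle genes themselves, so the loss of their calls under it tells nothing. No member of the glia, neuron or endothelial lists passed with that term. These small counts moved when a library was left out: glia gave 2 falls without day 100 library 2 or 3, neurons 0 or 1 whichever library was left out, and endothelium 0 except when day 100 library 1 was left out. Smooth muscle, glial and matrix genes were thus lower in the same libraries, and whether less muscle wall was sampled was not tested.

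Genes of the circadian clock were lower. Of 18 tested 10 fell and 1 rose (median -0.81), and 8 fell and 1 rose with squamous transcripts as a term. Without Control library 3, or without day 100 library 2 or 3, 6 fell, and with the smooth muscle term 1 fell. Per3, a period protein of the negative arm, held 55.9, 46.2 and 54.7 CPM in Control and 24, 18.3 and 12.1 CPM at day 100 (-1.53, SE 0.21, adjusted p = 1.64e-04). Per1 held 124, 100.5 and 124 and 65.5, 52.3 and 51.5 CPM (-1.04, SE 0.15, adjusted p = 2.07e-04), and Tef, a transcription factor of the clock's output, 96.3, 68.5 and 109 and 54.2, 32.7 and 26.8 CPM (-1.27, SE 0.25, adjusted p = 0.00235). For these genes day 100 library 1 was the highest of its group, still below Control. Nfil3, a repressor that opposes Tef, was the member that rose, at 6.18, 6.72 and 3.26 and 15.8, 20.5 and 23.9 CPM (1.90, SE 0.24, adjusted p = 6.33e-05). Dbp, another output factor, was called (-1.92, SE 0.49, adjusted p = 0.0110) although its groups overlapped, 36.9, 14.2 and 43.5 CPM in Control and 15.2, 5.19 and 4.67 CPM at day 100, and it was not called without Control library 3 or day 100 library 2 or 3. Arntl, the activator BMAL1, did not pass (log2 fold change 0.19, adjusted p = 0.564). Clock genes follow the hour of collection, which is not given in the sources used here, and its part in these differences was not tested.

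The E-box CACGTG is the sequence that clock activators bind. It was found in promoters of 5 of 15 matched clock genes (33.3%) and of 2187 of all 27025 genes (8.09%). Of the 5, 3 were called lower, beside 10 of all 18 genes of the list, and whether the E-box goes with the call was not tested. Capitals mark it in the promoters of Per1 (chr11:69098699-69098998, plus strand), where it starts at -166, and Tef (chr15:81802423-81802722, plus strand), where it starts at -127, shown as the matching members with the smallest p.
Per1: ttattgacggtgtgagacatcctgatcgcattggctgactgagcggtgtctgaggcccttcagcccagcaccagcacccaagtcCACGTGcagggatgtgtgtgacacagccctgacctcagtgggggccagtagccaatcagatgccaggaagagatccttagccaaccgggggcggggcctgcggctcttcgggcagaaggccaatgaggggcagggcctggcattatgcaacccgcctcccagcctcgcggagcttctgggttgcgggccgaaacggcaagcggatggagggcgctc
Tef: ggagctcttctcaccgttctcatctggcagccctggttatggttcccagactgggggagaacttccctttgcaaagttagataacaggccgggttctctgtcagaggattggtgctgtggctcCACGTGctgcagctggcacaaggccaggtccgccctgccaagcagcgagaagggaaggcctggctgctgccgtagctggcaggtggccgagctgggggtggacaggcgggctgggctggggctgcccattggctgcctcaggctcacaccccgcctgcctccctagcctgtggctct

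Metabolic genes were followed in 5 lists, whose counts stand beside 11.4% of all genes higher and 10.5% lower. Of 19 genes of fatty acid oxidation 8 fell and 1 rose, the binding protein Fabp2 described above (median -0.34), and with the smooth muscle term 1 fell and 1 rose. Without day 100 library 1 there were 3 rises. Pdk4, a kinase that turns off pyruvate oxidation, held 26.1, 15 and 22.7 CPM in Control and 5.93, 7.76 and 5.79 CPM at day 100 (-1.71, SE 0.24, adjusted p = 1.61e-04). Cpt1a, the gatekeeper of mitochondrial fatty acid entry, held 436, 399 and 410.3 and 229, 281 and 298 CPM (-0.62, SE 0.12, adjusted p = 0.00165), and Plin2, a lipid droplet coat protein, 181, 168 and 198 and 91.7, 94.9 and 102 CPM (-0.92, SE 0.14, adjusted p = 2.46e-04). Of 23 genes of drug metabolism 9 fell and the others did not pass (median -0.52), and 2 fell with the smooth muscle term. Without day 100 library 1 there were 2 rises, and without Control library 3 there was 1. Abcb1a, the P-glycoprotein drug exporter, held 614, 732 and 831 and 264, 282 and 286 CPM (-1.39, SE 0.25, adjusted p = 0.00123), and Nr1i2, the nuclear receptor that senses foreign compounds, 106, 96.3 and 99.5 and 57.2, 57.8 and 64 CPM (-0.76, SE 0.11, adjusted p = 2.30e-04). Of 21 genes of sterol and lipid synthesis 9 rose and 1 fell (median 0.42), 4 and 1 with squamous transcripts as a term and none with the smooth muscle term. This count rested on single libraries, with 1 rise without Control library 1, 2 without day 100 library 3 and 5 without Control library 2. Cyp51, a sterol demethylase, held 68.5, 73.3 and 104 and 144, 153 and 198 CPM (1.01, SE 0.19, adjusted p = 0.00142). Among 21 nuclear genes of the respiratory chain edgeR called 0 (median 0.07), with 1 at an unadjusted p below 0.05 and 0 called by DESeq2. Of 10 mitochondrially encoded genes 3 fell (median -0.22), 1 without day 100 library 3 and none with the smooth muscle term. These share sequence with nuclear copies, so their counts are uncertain.

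Metal transport genes were called in both directions, 5 higher and 6 lower of 17 (median -0.24), and 2 rose with the smooth muscle term. Slc40a1, ferroportin, which exports iron to the blood, held 286, 301 and 292 CPM in Control and 104, 92.7 and 102 CPM at day 100 (-1.55, SE 0.24, adjusted p = 3.45e-04). Tfrc, the transferrin receptor for iron uptake, rose from 162, 154 and 185 to 274, 321 and 272 CPM (0.79, SE 0.16, adjusted p = 0.00292), and the iron store Fth1 fell from 1479, 1412 and 1376 to 975, 940.0 and 832 CPM (-0.64, SE 0.09, adjusted p = 1.56e-04). The groups of the 3 iron genes did not overlap, as was so for 39.9% of all tested genes. Slc30a7, a zinc carrier of the secretory pathway, held 61.2, 67 and 64.6 and 96.7, 97.4 and 94.2 CPM (0.58, SE 0.08, adjusted p = 1.46e-04). The manganese exporter Slc30a10 held 18.9, 12.6 and 24.2 and 5.93, 0.833 and 0.903 CPM (-2.86, SE 0.72, adjusted p = 0.0102), a call lost without day 100 library 2 or 3.

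Repair genes were followed because AOM damages DNA bases. The counts of this paragraph stand beside 11.4% of all genes higher and 10.5% lower. Of 18 genes of base excision and alkylation repair 1 rose, the DNA polymerase Polb, from 14.6, 13.1 and 15.8 to 19.2, 23.6 and 23.1 CPM (0.60, SE 0.16, adjusted p = 0.0124), and its call was lost without Control library 2. Apex1, the apurinic endonuclease that APX3330 is directed against, held 3.73, 4.89 and 5.66 CPM in Control and 4.45, 6.41 and 5.94 CPM at day 100, with overlapping groups (0.24, SE 0.29, adjusted p = 0.603). Mgmt, which removes alkyl groups from guanine, did not pass (log2 fold change -0.36, adjusted p = 0.292). Of 13 p53 target genes 1 rose and 1 fell: Mdm2, the ubiquitin ligase of p53 (0.28, SE 0.09, adjusted p = 0.0403), and Bbc3, the death factor PUMA (-1.20, SE 0.28, adjusted p = 0.00621). The call of Mdm2 was lost with squamous transcripts as a term and when any library other than Control library 2 was left out. Of 18 ribosome biogenesis genes 1 rose, Utp20 (0.64, SE 0.13, adjusted p = 0.00292), with a median of 0.09. No gene of these 3 lists passed with the smooth muscle term.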

How the data were processed

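The authors deposited whole-number counts of reads per gene. The submitters' processing notes name GRCm38 and mm10. Which aligner and counter made the counts, and whether strand was used, is not given in the sources used here, and reads of near-identical, overlapping or antisense genes may thus be split or merged. Per the labels' protocols, total RNA came from a column kit and entered a SMARTER mRNA library kit. Groups follow the sample labels, and columns were matched by name.

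Of 56859 genes, 23552 had no count in any library and edgeR's filterByExpr left 18038. One edgeR 4.0.16 model (TMM, glmQLFit, glmQLFTest, R 4.3.3) covered all 15 libraries in 5 groups, with Benjamini-Hochberg adjustment over all tested genes. CPM values use TMM-scaled library sizes. Each SE is the log2 fold change divided by √F. The scripts were tested on simulated data. A gene was called at an adjusted p below 0.05. Pairs of libraries within a group differed by more than counting noise (chi-square per degree of freedom 9.09 to 18.8), so none was taken as deposited more than once.

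The members, gene lists and rules were chosen with earlier results of these data known. Named genes are the 14 rises and 14 falls with the largest smaller ratio of 2 log2 ratios of CPM + 0.5, taken within libraries with and within libraries without squamous transcripts. They had to be called with and without squamous transcripts as a term, to have a mean of at least 2 CPM and no overlap between groups, to be on no list of another tissue, and to have a gene symbol that is no predicted or clone name and no antigen receptor segment. Each list adds up to 5 members with the smallest p, its first 3 members, and members against its direction, and Apex1 was added. Some named genes are not reported here. The following were named beyond this rule after their values were seen: Aqp8, Arntl, Atf6, Atoh1, Dbp, Duox2, Ern1, Ern2, Hoxa13, Hsf1, Nr3c2, Scnn1a, Sgk1, Slc9a3, Tef, Tff3, Zbp1 and Zg16. Alternatives were DESeq2 size factors, the DESeq2 1.42.0 test, limma-voom (limma 3.58.1) with quality weights, no filter, only the 6 libraries, the replicate number as a block, a squamous or a smooth muscle term, no squamous libraries, and each library left out. A fit of the day 48 contrast without 2 libraries with pancreas transcripts was chosen after seeing the data. Coordinates are from GENCODE M21 (GRCm38), and promoters run from 250 bases before to 50 bases after the start site in RefSeq's GRCm38.p6. Figures were drawn with matplotlib 3.10.9.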

Additional observations from a re-analysis of the deposited data

How the results depend on the processing

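The 2057 higher and 1886 lower genes became 475 and 515 without the 3 libraries holding squamous transcripts, with 443 and 481 of them shared with the full comparison. That fit leaves 1 Control library, which is assumed to vary like the other groups. When the smooth muscle score was a covariate they became 157 and 77, of which 154 and 74 were shared. When single libraries were left out, the higher genes ran from 1359 (without Control replicate 1, 1290 shared) to 1763, and the lower genes from 1244 (without saline day 100 replicate 3, 1156 shared) to 1745. With the replicate block the counts were 1938 and 1762. The libraries share only a number: the deviations of same-numbered Control and day 100 libraries correlated at 0.255, 0.177 and -0.113, and not every library correlated best with its own number. The other alternatives gave between 1501 and 2226 genes per direction. Of 269 called genes that were followed by name, 45 were called in every alternative, and 15 of the 28 with the strongest shifts: Ang4, Retnlb, Itln1, Apol10a, Grpr, Plet1, Mptx1, Clca1, Trat1, Fxyd4, Wnt8b, Scnn1g, Scnn1b, Galnt17 and Hoxd9. The log2 fold changes of 6 called genes turned with the smooth muscle covariate: Cldn2 to 0.0601, Rrm2 to -0.0510, Myh11 to 0.0096, Nr1d2 to 0.34, mt-Nd1 to 0.19 and Krt1 to 3.04. Myh11 is itself part of that score. Far2 turned to 0.0399 without the squamous libraries. The cause was not tested. Depth limits the precision for genes of a few CPM, such as most T cell genes.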

Other observations

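Several single genes of peptide, amino acid and vitamin handling at the apical membrane were called. They belong to no list of this comparison and were chosen after their values were seen, so no count is read from them. Slc15a1, the proton-coupled peptide carrier, held 268, 270.1 and 278 CPM in Control and 81, 54 and 59.4 CPM at day 100 (-2.07, SE 0.32, adjusted p = 3.81e-04 with edgeR). Slc36a1, which takes up small amino acids with protons, held 359, 405 and 403 and 151, 101 and 118 CPM (-1.66, SE 0.14, adjusted p = 3.00e-06), and Slc46a1, the folate carrier, 56.7, 58.4 and 49.8 and 14.7, 8.65 and 7.98 CPM (-2.40, SE 0.28, adjusted p = 4.04e-05). The groups did not overlap for any of the 3, as was so for 39.9% of all tested genes. Slc36a1 was called in every alternative. The 2 subunits of the brush border peptidase meprin had different values: Mep1a, the alpha subunit, held 305, 306 and 312 and 117, 130.3 and 146 CPM (-1.23, SE 0.19, adjusted p = 3.48e-04), and Mep1b, the beta subunit, held 80.2, 80.0 and 80.9 and 66.8, 72.9 and 86.3 CPM (log2 fold change -0.09, adjusted p = 0.720). That difference between the subunits was not tested. Isx, a homeobox factor of intestinal vitamin A metabolism, was higher, at 0.386, 0.584 and 0.732 and 3.74, 9.23 and 17.4 CPM (4.14, SE 0.55, adjusted p = 1.07e-04).

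Of 17 tested enteroendocrine genes edgeR called 3 higher and 1 lower, and none with squamous transcripts as a term. Counts in this and the next lists stand beside 11.4% of all genes higher and 10.5% lower. With single libraries left out the rises ran from 0 to 3. Chga, which marks hormone-secreting cells, held 48.4, 54.8 and 58.3 and 45.9, 64.4 and 53.5 CPM (log2 fold change 0.02, adjusted p = 0.948). Of 17 matrix metalloproteinases, related proteases and their inhibitors 1 rose, Adam8, a protease of leukocytes (1.28, SE 0.28, adjusted p = 0.00440), and 5 fell, among them Adamts5, which cleaves proteoglycans (-1.06, SE 0.23, adjusted p = 0.00384). The number of falls was 2 without Control library 1 or day 100 library 3, and 3 without Control library 2 or day 100 library 2. Of 20 chemokines and adhesion molecules 6 rose and 1 fell. Vcam1, which binds leukocytes to vessels, held 16.6, 18.8 and 14.8 and 35.1, 34.9 and 32.1 CPM (1.02, SE 0.17, adjusted p = 5.67e-04), and Cx3cl1, a membrane-bound chemokine of the epithelium, was the fall (-0.57, SE 0.12, adjusted p = 0.00365). Of 21 glycolysis and hypoxia genes 4 fell, with 1 to 3 called when 1 library was left out. Of 16 genes of the oxidative stress factor Nrf2 3 rose, including the cystine carrier Slc7a11 (1.61, SE 0.26, adjusted p = 4.81e-04), and 1 rose without day 100 library 1 or 2. Of 12 adipocyte genes 1 rose, Pparg (0.44, SE 0.11, adjusted p = 0.00704), and 1 fell, Plin4 (-0.84, SE 0.19, adjusted p = 0.00460), with 4 rises without Control library 3. With the smooth muscle term 2 of the chemokine and adhesion genes rose, and none passed in the lists of the other 5 kinds above.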
